A study of Mus musculus with 8 samples.

Results

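Single-cell RNA-seq libraries of neonatal and late fetal mouse blood stem cells were searched for cells that carried RNA of both Lmna and Ahnak. A stem-gated cell was a cell with at least 1 UMI (unique molecular identifier, 1 counted RNA molecule) each of the stem cell genes Mecom and Hlf, fewer Mpo than Mecom UMIs, and no UMI of Cd79a, Elane or Mcpt8. Of 15574 stem-gated cells in 6 libraries, 633 had at least 1 UMI of Lmna and at least 1 of Ahnak and are called double-positive. A further 11502 had neither and are called double-negative, 995 had Lmna alone and 2444 had Ahnak alone. The members were therefore chosen by 2 measured genes, and neither gene nor the 6 gate genes entered any test below.

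Lmna encodes lamins A and C, intermediate filament proteins that form the meshwork under the inner nuclear membrane and set how stiff the nucleus is. Ahnak encodes a very large scaffold protein that sits at the plasma membrane with annexin A2 and S100A10 and contacts the actin cytoskeleton. Long-lived blood stem cells divide rarely, and their output before and after birth differs, with the liver, spleen and bone marrow all holding stem cells around birth.

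All cells had been sorted as Epcr+Lin-Sca-1+Kit+ after c-Kit enrichment. A pool of 7 wild-type mice at postnatal day 2 (P2) gave separate bone marrow, liver and spleen libraries. Wild-type embryos at about day 19 of gestation (E19) gave 1 library, whose title names bone marrow and whose tissue field names fetal liver. A pair of P2 pups of the genotype Tppp3-CreERT2 Rosa26-lox-STOP-lox-TdTomato, in which tamoxifen switches on the red reporter in cells that use the Tppp3 promoter, received tamoxifen at P0 and gave bone marrow and spleen cells in 2 mixed libraries, tube 1 and tube 2. The sex of the animals is given as unknown. Tube 1 held tdTomato-positive cells of pup 1 with tdTomato-negative cells of pup 2, and tube 2 the reverse. By their hashtags, 254 of the 259 assigned double-positive cells of tube 1 came from pup 2 and 112 of the 131 of tube 2 from pup 1. The libraries thus rest on 1 pool, 1 set of embryos and 2 pups. The p-values and standard errors below come from count fits to 5 libraries, not to independent animals. Sums with more UMIs, those of the tubes, weigh more in them, so they do not give an equal-weight spread between libraries.

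The libraries held 2838 to 11323 cell barcodes and 56010320 to 87254828 UMIs. Both tubes stood apart in depth: their stem-gated cells had medians of 20052 and 21723 UMIs, against 6185 to 8148 in the other 4. For this reason each double-positive cell was set against the 3 double-negative cells of its own library nearest in total UMIs. The median of the double-positive cells ranged from 5145 UMIs in P2 bone marrow to 19869.5 in tube 2, and the matched medians were 5145.5 and 19896.5. Between any 2 libraries at most 7 stem-gated barcodes were shared. The surface receptor gene Procr, which encodes the sorted Epcr protein and was not used to choose cells, was at 30.8 to 48.8 CPM (UMIs of the gene scaled to a fixed total of UMIs in the sum) in the double-positive sums and at 22.7 to 43.4 in the double-negative ones.

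Double-positive cells made up a small share of the stem-gated cells that differed between libraries. The share was 3.47% (50 of 1443 cells; 95% exact binomial interval 2.58 to 4.54) in P2 bone marrow, 7.36% (12 of 163; 3.86 to 12.5) in P2 liver and 3.15% (48 of 1522; 2.33 to 4.16) in P2 spleen. It was 0.538% (45 of 8359; 0.393 to 0.720) in E19, 11.2% (282 of 2517; 10.0 to 12.5) in tube 1 and 12.5% (196 of 1570; 10.9 to 14.2) in tube 2. The intervals cover counting error only, with 1 library for each tissue and age. Cells with at least 5000 UMIs were then thinned to 5000 before the gate, and shallower cells were left out. The shares became 2.17%, 4.93%, 1.55%, 0.272%, 5.26% and 4.43% in the same order. E19 was thus the lowest and both tubes were among the 3 highest with and without thinning. The loss was uneven: 23.6%, 29.6%, 31.9%, 24.6%, 2.53% and 7.24% of the kept cells were left out, in that order.

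**Figure D1:**
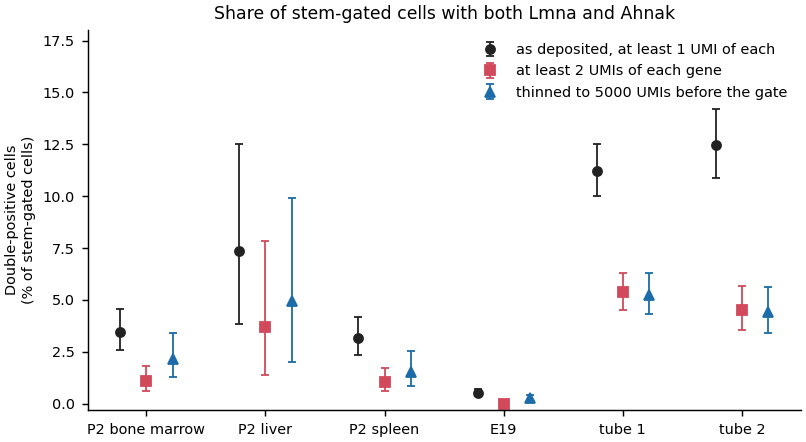
Double-positive cells as a percentage of stem-gated cells (y axis) in each of the 6 libraries (x axis), with 95% exact binomial intervals. Colours mark at least 1 UMI of each gene (black), at least 2 UMIs of each (red) and cells of at least 5000 UMIs thinned to 5000 (blue). E19 sits lowest at 0.538% in black, and tubes 1 and 2 sit at 11.2% and 12.5% in black and at 5.26% and 4.43% in blue.

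In the P2 libraries Lmna RNA was more often detected in cells with Ahnak than in cells without it, while in E19 the shares were close. In thinned cells, Lmna was detected in 22.8% of Ahnak-positive and 4.80% of Ahnak-negative stem-gated cells of P2 bone marrow, in 20.6% and 5.56% in liver, and in 16.1% and 7.64% in spleen. The pairs were 22.2% and 4.14% in tube 1 and 14.5% and 4.33% in tube 2, but 5.18% and 4.28% in E19. There the exact interval of the Ahnak-positive share (16 of 309 cells; 2.99 to 8.27) included the Ahnak-negative share. Without thinning the E19 pair was 6.93% and 6.60%. These shares describe the selection and carry no test.

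Free RNA can place a UMI in a cell that does not express a gene, so cells with Cd79a, a B-lineage gene, served as a reference. In E19, Lmna was detected in 6.63% of stem-gated cells at a median of 6270 UMIs and in 7.77% of 206 Cd79a-positive cells at a median of 8405. Among 108 E19 cells with Elane, a granulocyte gene, it was detected in 15.7% at a median of 11892.5. In P2 bone marrow the Lmna shares were 9.98% and 4.76% and the Ahnak shares 14.4% and 5.63%, at medians of 6185 and 5803 UMIs. In P2 spleen the Lmna shares were 11.8% and 7.63%, but the Ahnak shares were 14.7% and 15.4%, at medians of 6613.5 and 3880 UMIs. The Lmna share of E19 and the Ahnak share of spleen were thus not above those of Cd79a-positive cells. In P2 liver and both tubes, stem-gated cells had higher shares of both genes and were also deeper than Cd79a-positive cells. Depth differed between the groups, and whether Cd79a-positive cells make either RNA was not tested. These shares therefore do not separate free RNA from expression.

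Many double-positive cells lay at the threshold. Over all libraries 157 of the 633 had exactly 1 UMI of each gene, and 146 had at least 3 of each. Just outside the rule, 820 cells had 1 Lmna UMI and no Ahnak, and 1536 had 1 Ahnak UMI and no Lmna. With at least 2 UMIs of each gene required, the shares were 1.11%, 3.68%, 1.05%, 0%, 5.36% and 4.52% in P2 bone marrow, liver, spleen, E19, tube 1 and tube 2. The 0 of 8359 E19 cells allows a share of up to 0.0359% if 3 cells are taken as the limit for a count of 0, and the exact interval drawn in the plot of shares reaches 0.0441%. At their most, the double-positive cells of the tubes held 32 Lmna and 33 Ahnak UMIs.

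To ask which other genes went with the pair, UMIs were summed per library and group and compared with edgeR's quasi-likelihood test with library as a pairing term and Benjamini-Hochberg adjustment. P2 liver, with fewer than 20 double-positive cells, was left out, leaving 621 double-positive cells in 5 libraries and 10 sums. Of 9881 genes tested, 261 were higher in double-positive cells (2.64% of genes tested) and 195 were lower (1.97%) at an adjusted p under 0.05, and 1588 had an unadjusted p under 0.05. The called genes moved the same way in all 5 libraries for 141 of the 261 and 105 of the 195. Of all genes tested, 7.70% were higher and 5.06% lower in all 5 libraries. The 5 double-positive levels lay clear of the 5 double-negative levels for 26 of the higher and 5 of the lower genes, and for 0.708% of genes tested. Fold changes are on the log2 scale, positive where double-positive cells were higher, and the median over all genes tested was -0.003.

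The number of calls moved with single libraries. Without tube 1 there were 65 higher and 24 lower of 9533 genes tested, without tube 2 78 and 33 of 9519, and without E19 519 and 694 of 11146. Without P2 bone marrow there were 218 and 166 of 11245, and without spleen 217 and 162 of 11188. List counts given below for a fit without 1 library stand beside these totals, not beside those of the main fit. The double-positive sums held 4160910 to 5067615 UMIs in the tubes and 324879 to 463615 in the other 3 libraries. DESeq2 called 93 higher and 76 lower. limma on log2 CPM called 2 and 2, among them 1 of 19 annexin and S100 genes, 0 of 20 sterol genes and 0 of 49 G2/M genes of the lists below, whose medians in that fit were 0.60, 0.67 and -0.38.

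**Figure D2:**
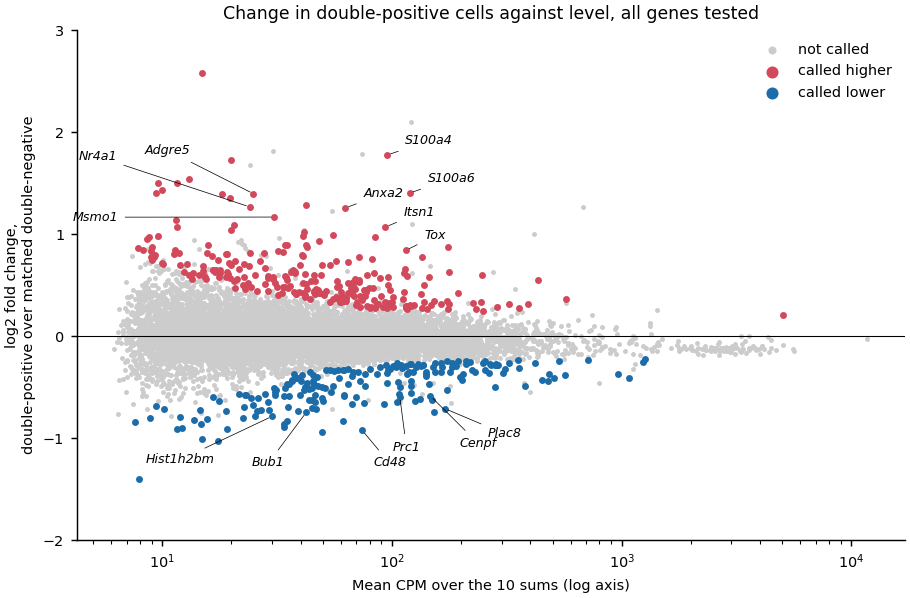
Log2 fold change of double-positive over matched double-negative cells (y axis) against mean CPM over the 10 sums (x axis, log scale) for the 9881 genes tested; each point is a gene, red where called higher and blue where called lower. S100a4 and S100a6 are labelled at 1.78 and 1.40, and Cd48 at -0.92.

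Genes of a mixed list of annexins, S100 proteins and Ahnak partners were higher as a group in 4 of 5 libraries. Summed over the list, double-positive levels were 1439 to 6162 CPM against 1698 to 2636 in matched cells. The lowest double-positive sum, that of E19, lay below every matched sum. Of 27 annexin, S100 and Ahnak-partner genes in the list, 19 were tested, 10 rose and none fell, with a median log2 fold change of 0.55. Leading it were S100a4 and S100a6, which encode small calcium-binding proteins and lie close to each other on chromosome 3 (ENSMUSG00000001020 at chr3:90603771-90606045 and ENSMUSG00000001025 at chr3:90612882-90624181, both plus strand, mouse GRCm38, GENCODE vM21).

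S100a4 was at 203 CPM in double-positive and 60.5 in double-negative cells of P2 bone marrow, 183 and 57.2 in spleen, 30.2 and 28.7 in E19, 177 and 48.2 in tube 1, and 133 and 33.2 in tube 2. It was high in double-positive cells of the 4 P2 libraries and low in both groups of E19, which makes the groups overlap. The log2 fold change was 1.78 ± 0.11 (SE of the edgeR fit to 5 libraries, edgeR adjusted p = 2.29e-09). S100a6 was at 274 against 106 CPM in P2 bone marrow, 282 against 95.8 in spleen, 19.4 against 17.7 in E19, 166 against 60.5 in tube 1 and 128 against 45.1 in tube 2. Here too the E19 double-positive cells lay below every double-negative sum of the P2 libraries, and the log2 fold change was 1.40 ± 0.08 (edgeR adjusted p = 6.42e-14).

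Anxa2, which encodes annexin A2, the membrane-binding protein that AHNAK docks onto (ENSMUSG00000032231, chr9:69453620-69491795, plus strand), was at 129 against 41.0 CPM in P2 bone marrow and 90.1 against 26.1 in spleen. It was at 32.4 against 23.6 in E19, 106 against 40.3 in tube 1 and 94.5 against 43.0 in tube 2. Every library was higher in its double-positive cells, and only the E19 double-positive level fell within the range of the double-negative ones. The log2 fold change was 1.26 ± 0.10 (edgeR adjusted p = 4.57e-10).

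Anxa5, which encodes the phosphatidylserine-binding annexin A5, rose by 0.76 ± 0.10 without overlap of the groups, at 73.3 to 163 CPM against 49.6 to 69.2. Plec (plectin, a linker between intermediate filaments and actin) rose by 0.78 ± 0.09, Capn2 (a calcium-activated protease) by 0.70 ± 0.11 and Tagln2 (an actin-binding protein) by 0.55 ± 0.08 on the log2 scale. Anxa6, S100a13 and Anxa1 completed the 10, at 0.52, 0.48 and 0.44. In E19 alone, Anxa1 was lower in double-positive cells, at 4.31 against 19.9 CPM.

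Not all members of the list passed. S100a10, the annexin A2 light chain that forms the docking complex with AHNAK, was at 936, 752, 116, 604 and 465 CPM in the double-positive cells of P2 bone marrow, spleen, E19, tube 1 and tube 2. The matched cells had 295, 267, 212, 255 and 255. The 4 P2 libraries thus went up and E19 went down, and the log2 fold change of 1.00 ± 0.32 had an edgeR adjusted p of 0.246. Vim, the intermediate filament protein vimentin, had the same layout (1567, 1208, 121, 1218 and 890 CPM against 378, 356, 201, 441 and 423), with 1.27 ± 0.35 and an edgeR adjusted p of 0.194. S100a11 was at 0.63 (adjusted p = 0.05002) and Crip1, a LIM-domain protein gene, at 0.32 (0.468). Without E19, 14 of 22 list genes tested rose, and without tube 1 or tube 2, 8 and 9 of 19.

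**Figure D3:**
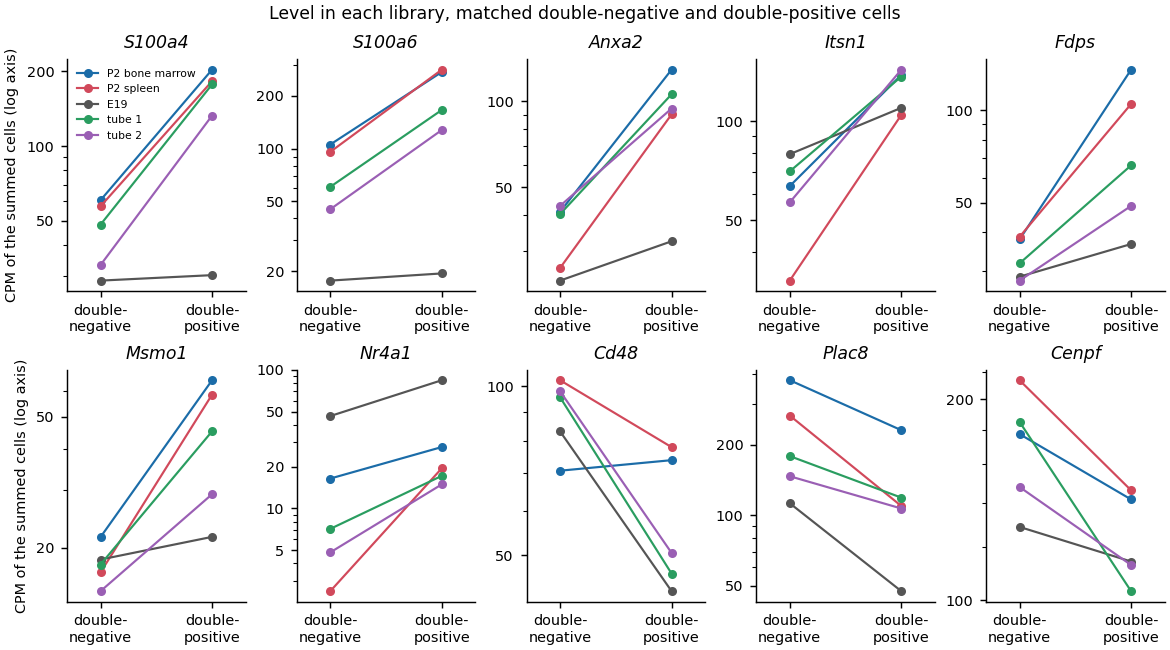
CPM (y axis, log scale) of 10 genes in the double-positive and the matched double-negative sum of each of 5 libraries, joined by a line per library. S100a4, S100a6, Anxa2, Itsn1, Fdps, Msmo1 and Nr4a1 slope up to the double-positive side and Plac8 and Cenpf slope down in all 5 libraries, while Cd48 slopes down in 4 of 5.

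The Anxa2 promoter is shown because the gene was among the leaders and because its window holds the letters of an AP-1 site, the kind of site bound by Fos and Jun proteins. The 250 bases before the RefSeq start site (GRCm38.p6, chr9:69453433-69453682, plus strand) read as follows, with the match in capitals, 95 bases before the start.
Anxa2: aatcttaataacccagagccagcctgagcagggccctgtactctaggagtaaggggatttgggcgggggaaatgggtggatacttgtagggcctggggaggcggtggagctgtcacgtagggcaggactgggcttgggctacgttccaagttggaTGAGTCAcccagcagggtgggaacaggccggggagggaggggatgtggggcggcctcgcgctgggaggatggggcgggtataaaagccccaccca
AP-1 was searched as TGANTCA, TEAD as GGAATG and CRE as TGACGTCA, on both strands, from 250 bases before to 50 after the start site. RefSeq promoters were matched for 205 of the 261 higher, 148 of the 195 lower and 7928 of the 9881 tested genes. AP-1 letters were present in 6.34% of higher, 3.38% of lower and 4.25% of all tested promoters, TEAD letters in 13.7%, 12.8% and 11.04%, and CRE letters in 2.44%, 3.38% and 3.49%. A match of letters is a description of the window, not a bound site.

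Cholesterol synthesis was the other group that rose together, with the list sum higher in 4 of 5 libraries, at 638 to 1354 against 580 to 651 CPM. Cells make cholesterol from acetyl-CoA through mevalonate, isoprenoid and squalene steps, and most of the enzymes' genes share control by the sterol-sensing factor SREBP2. The list of 26 sterol synthesis and sterol control genes was written after the values had been seen, so its count is a description: 20 were tested, 12 rose and none fell, with a median of 0.61.

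Along the pathway, Acat2 (acetyl-CoA acetyltransferase) rose by 0.58 ± 0.14 and Hmgcs1 (HMG-CoA synthase) by 1.02 ± 0.12. Of the isoprenoid enzymes, Idi1 rose by 0.93 ± 0.12 and Fdps by 1.00 ± 0.12. Of the squalene and later enzymes, Fdft1 was at 1.04, Sqle at 0.67, Cyp51 at 0.98, Msmo1 at 1.17 and Sc5d at 0.58. Insig1, which holds the SREBP complex in the endoplasmic reticulum, was at 0.64.

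Fdps, which encodes farnesyl diphosphate synthase (ENSMUSG00000059743, chr3:89093588-89101959, minus strand), was at 135 against 37.9 CPM in P2 bone marrow, 105 against 38.7 in spleen, 36.7 against 28.7 in E19, 66.1 against 31.7 in tube 1 and 48.8 against 27.9 in tube 2. All 5 libraries were higher, P2 bone marrow the most (edgeR adjusted p = 1.49e-06). Msmo1, a methylsterol oxidase gene, was at 64.6, 58.4, 21.6, 45.2 and 29.1 CPM against 21.5, 16.8, 18.4, 17.8 and 14.7 in the order P2 bone marrow, spleen, E19, tube 1 and tube 2. Its lowest double-positive level lay just above its highest double-negative one (log2 fold change 1.17 ± 0.14, edgeR adjusted p = 1.99e-06). Cyp51 also had no overlap, at 32.4 to 98.5 against 19.1 to 29.4 CPM.

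Hmgcs1 was higher in the 4 P2 libraries, at 89.3, 58.4, 65.9 and 49.7 against 36.9, 23.5, 27.7 and 26.8 CPM in bone marrow, spleen, tube 1 and tube 2, and lower in E19 at 15.1 against 19.1. Srebf2, which encodes SREBP2, was at 0.21 ± 0.07, with an edgeR adjusted p of 0.109. Without tube 1, tube 2 or E19 the list had 6 of 20, 8 of 20 and 16 of 24 tested genes higher.

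The Hmgcs1 and Idi1 promoters are shown for the letters of a sterol response element (searched as TCACNCCAC) and of CCAAT boxes, both chosen after the gene values had been seen. Coordinates are GRCm38.p6 from RefSeq, chr13:119690101-119690350 for Hmgcs1 and chr13:8885356-8885605 for Idi1, both plus strand and 250 bases long, with matches in capitals.
Hmgcs1: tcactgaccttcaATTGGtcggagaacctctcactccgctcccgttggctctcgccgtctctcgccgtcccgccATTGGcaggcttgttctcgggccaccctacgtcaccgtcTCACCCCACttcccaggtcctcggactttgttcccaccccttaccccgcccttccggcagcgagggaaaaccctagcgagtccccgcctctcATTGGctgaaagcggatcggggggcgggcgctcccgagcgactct
Idi1: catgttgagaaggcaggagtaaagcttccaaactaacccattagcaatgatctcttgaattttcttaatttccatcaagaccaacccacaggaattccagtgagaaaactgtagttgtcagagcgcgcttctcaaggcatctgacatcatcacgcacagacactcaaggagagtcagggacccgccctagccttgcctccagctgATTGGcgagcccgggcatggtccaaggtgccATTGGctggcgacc
Hmgcs1 holds the sterol response letters 137 bases before the start and CCAAT letters, on the other strand, at 237, 176 and 45 bases before it, and Idi1 holds them at 45 and 14. Of the 7 called sterol genes with a RefSeq promoter, 6 held CCAAT letters and 1, Hmgcs1, the sterol response letters. Among all tested promoters the shares were 39.3% and 0.921%.

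Immediate early genes, which cells switch on within minutes of a stimulus, and genes of stem cell quiescence rose in part. Of 25 immediate early and heat shock genes tested, 7 rose and none fell (median 0.19), and of 19 imprinted and quiescence genes 6 rose and none fell (median 0.29). Nr4a1, Egr1 and Klf2 stand in both lists. Nr4a1, an orphan nuclear receptor gene (ENSMUSG00000023034, chr15:101254269-101274795, plus strand), was at 27.7 against 16.4 CPM in P2 bone marrow, 19.5 against 2.52 in spleen, 84.1 against 46.4 in E19, 17.2 against 7.11 in tube 1 and 14.9 against 4.81 in tube 2. E19 was highest in both groups, so the groups overlap although every library rose (log2 fold change 1.27 ± 0.18, edgeR adjusted p = 2.32e-05).

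Fosb rose by 1.54 ± 0.24, Klf2, a quiescence factor in lymphocytes, by 0.89 ± 0.21, Klf6 by 0.74 ± 0.10, Egr1 by 0.60 ± 0.17, Jund by 0.50 ± 0.07 and Mcl1, a survival factor of the BCL2 family, by 0.30 ± 0.07. Fos and Jun did not pass, at 1.04 ± 0.49 and 0.06 ± 0.07 (edgeR adjusted p = 0.414 and 0.731).

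Of the quiescence list, Foxo1, a transcription factor that restrains growth signalling, rose by 0.48 ± 0.12 without overlap, at 36.0 to 47.5 against 19.5 to 35.3 CPM. The imprinted genes H19 and Grb10 rose by 0.57 ± 0.15 and 0.29 ± 0.08, H19 in 3 of 5 libraries. The cell cycle inhibitor Cdkn1c was at 0.39 ± 0.12 (edgeR adjusted p = 0.0508). Without tube 1 or tube 2 the quiescence list had 1 call each and the immediate early list 2 and 3. Without E19 13 of 23 quiescence genes were higher, and of 27 immediate early genes 7 were higher and 1 lower. Of all 11146 genes tested in that fit, 519 were higher and 694 lower.

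Of the genes named by their size of change, several separated the groups fully. Itsn1, which encodes the endocytic scaffold intersectin 1 (ENSMUSG00000022957, chr16:91729281-91920597, plus strand), was at 139, 105, 110.005, 137 and 144 CPM in the double-positive cells of P2 bone marrow, spleen, E19, tube 1 and tube 2, against 63.6, 32.8, 79.5, 70.5 and 56.7. All double-positive levels lay above all double-negative ones, E19 included (log2 fold change 1.07 ± 0.09, edgeR adjusted p = 3.82e-09). Tox, a chromatin protein gene known from T cell development (ENSMUSG00000041272, chr4:6686353-6991557, minus strand), was at 125 to 157 against 64.7 to 113 CPM, with 0.84 ± 0.08 (edgeR adjusted p = 2.67e-08).

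Adgre5, the adhesion receptor CD97, was at 24.6 to 51.1 against 10.9 to 18.1 CPM, also without overlap (1.40 ± 0.16). Pdlim1, an actin-associated PDZ and LIM protein, and Agpat4, an acyltransferase of phospholipid synthesis, rose by 0.89 and 0.87 without overlap. Adam22 and Hmcn1, genes of a cell-surface adhesion protein and of an extracellular matrix protein, both rose by 0.83, higher in all 5 libraries but with overlap of the groups.

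Of 39 actin, adhesion and SRF or YAP target genes tested, 4 rose and none fell, with a median of 0.03. These were Vcl (vinculin, 0.43), Iqgap1 (an actin scaffold, 0.33), Mrtfb (an SRF coactivator, 0.29) and Cd44. Cd44, the hyaluronan receptor, was at 194, 189.9, 307 and 250.4 CPM against 105, 103, 162 and 174 in P2 bone marrow, spleen, tube 1 and tube 2, and at 136 against 146 in E19 (0.63 ± 0.09, edgeR adjusted p = 0.00023). The P2 libraries thus rose and E19 did not.

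Of 31 stem cell identity genes tested, 3 rose and 2 fell, with a median of 0.05. Mllt3, a regulator of stem cell maintenance, rose by 0.32 ± 0.08, Ctnnal1 (alpha-catulin, a stem cell reporter gene) by 0.51 ± 0.12 and Trim47 by 0.57 ± 0.17. Procr was higher in 5 of 5 libraries but at 0.21 ± 0.11 did not pass (edgeR adjusted p = 0.332), and Slamf1, the CD150 gene, was at -0.49 ± 0.22 (0.255).

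The genes of this list that fell were Cd48 and Cd34. Cd48, a SLAM-family receptor gene that the most primitive stem cells lack (ENSMUSG00000015355, chr1:171682009-171705258, plus strand), was at 73.9 against 70.7 CPM in P2 bone marrow, 77.9 against 103 in spleen, 43.1 against 83.2 in E19, 46.4 against 95.7 in tube 1 and 50.5 against 98.1 in tube 2. It was lower in 4 of 5 libraries and slightly higher in P2 bone marrow (log2 fold change -0.92 ± 0.10, edgeR adjusted p = 6.29e-07). Cd34, a sialomucin gene lost from the surface of adult long-term stem cells, was at 182, 124, 110.005, 217 and 221 against 239.9, 188, 179, 269 and 281 CPM, lower in all 5 (-0.43 ± 0.07, edgeR adjusted p = 0.000157).

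Plac8, known from myeloid and lymphoid progenitors (ENSMUSG00000029322, chr5:100553725-100572245, minus strand), was at 231, 109.6, 47.5, 119 and 107 against 377, 267, 113, 179 and 147 CPM in the order P2 bone marrow, spleen, E19, tube 1 and tube 2. All 5 libraries fell (-0.71 ± 0.09, edgeR adjusted p = 4.91e-06). Of 13 lymphoid-primed genes tested, 2 rose and 2 fell, the latter being Satb1, a chromatin organiser gene, at -0.50, and the cytokine receptor gene Flt3 at -0.27. Pcdh7, a protocadherin gene, fell by 0.62 on the log2 scale.

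Platelet and megakaryocyte genes were tested in 11 of 25 cases, of which 3 rose and none fell (median 0.20). Plek (pleckstrin, a platelet signalling protein) was at 92.3, 68.2, 34.5, 52.9 and 47.1 CPM against 18.5, 20.2, 50.05, 16.8 and 20.7 in P2 bone marrow, spleen, E19, tube 1 and tube 2. It was higher in the 4 P2 libraries and lower in E19 (1.29 ± 0.26, edgeR adjusted p = 0.0453). The tetraspanin genes Cd9 and Cd63 rose by 0.54 and 0.41, and none of the 3 kept its call without tube 1 or without tube 2. Of 11 fetal genes tested, Igf2bp1, H19 and Fstl1 rose and Hmga2 fell, by 0.25 on the log2 scale. Igf2bp1 was at 0 CPM in the double-positive cells of both pool libraries.

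Mitotic genes were the list with the most calls. Of 49 G2/M genes tested 30 fell and none rose, with a median of -0.49, and all 49 had a negative log2 fold change. Cenpf, a kinetochore protein gene (ENSMUSG00000026605, chr1:189640606-189688086, minus strand), was at 142 against 177 CPM in P2 bone marrow, 146 against 214 in spleen, 114 against 129 in E19, 103 against 185 in tube 1 and 113 against 148 in tube 2. Every library was lower and the groups overlap (-0.59 ± 0.09, edgeR adjusted p = 3.75e-05). Bub1, a spindle checkpoint kinase gene (ENSMUSG00000027379, chr2:127801122-127831865, minus strand), was at 24.6, 26.8, 30.2, 37.1 and 34.8 against 56.4, 64.7, 34.6, 60.7 and 53.8 CPM, with the smallest gap in E19 (-0.75 ± 0.11, edgeR adjusted p = 3.75e-05).

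The cyclins of mitotic entry Ccnb1 and Ccnb2 were at -0.52 and -0.83 and the mitotic kinase gene Aurka at -0.72. Ckap2l, Cep55, Ect2, Prc1 and Cenpe, genes of the spindle and of cytokinesis, were between -0.71 and -0.55, and Cip2a and Mnd1 at -0.58 and -0.55. In E19, Ccnb2 and Aurka were higher in double-positive cells, at 73.3 against 52.3 and 36.7 against 24.3 CPM. The count depended on the tubes: without tube 1, 1 of 49 G2/M genes was lower, without tube 2, 6 of 49, and without E19, 46 of 50. DESeq2 called 16 of 49.

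Other cell cycle lists had fewer calls. Of 37 S phase genes tested 2 fell (Gmnn by 0.31 and Usp1 by 0.25 on the log2 scale) and none rose (median -0.16). Without E19 12 of 37 fell, where 694 of all 11146 genes tested did. With at least 2 UMIs of each selecting gene, in the tubes only, 25 of 37 fell, where 607 of all 11604 genes tested did. Of 15 G1 cyclin and Cdk genes 2 rose and none fell. Clustered histone genes, whose RNA is made in S phase and mostly lacks a poly(A) tail, were counted as a group after their values had been seen: 19 of 41 fell and none rose (median -0.55). Hist1h2bm, at 30.8, 31.7, 8.63, 23.5 and 20.7 against 34.9, 55.5, 19.9, 34.5 and 40.9 CPM, was at -0.79 ± 0.13 (edgeR adjusted p = 0.00021), and Hist1h4i and Hist1h4h at -0.73 and -0.71. Without tube 1 or tube 2, 6 and 3 of 41 histone genes fell, and reads can be split between these near-identical genes. By cells, 57.8% (E19) to 74.8% (tube 1) of double-positive cells lay below their library's median share of cell cycle UMIs. That share was summed over the S phase and G2/M lists. Among cells below that median in both groups, 14 of 19 annexin and S100 genes and 11 of 16 sterol genes rose. Of all 7830 genes tested in these cells, 292 rose and 318 fell. In the same cells 4 of 18 G2/M genes and 22 of 29 S phase genes (median -0.40) fell. As these lists had chosen the cells, their counts describe the cut and are not read further.

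The promoters of G2/M genes are shown around the letters of the cell cycle homology region (CHR, TTTGAA), the element through which the DREAM complex holds such genes off in cells at rest; this motif was chosen after the gene values had been seen. Of the called G2/M genes whose window holds the letters, 5 with large falls are given as 30 bases each (RefSeq, GRCm38.p6), with the match in capitals on either strand.
Ccnb2: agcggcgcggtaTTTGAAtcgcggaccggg
Aurka: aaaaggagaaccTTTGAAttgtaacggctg
Ckap2l: ttattggcgaatTTCAAAgtcgcggaagcc
Kif2c: ccaggctgctctTTCAAAcctgagtaatgc
Ttk: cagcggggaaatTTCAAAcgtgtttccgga
They lie at chr9:70421533-70421562, chr2:172370521-172370550, chr2:129297225-129297254 and chr4:117178858-117178887 on the minus strand and chr9:83834684-83834713 on the plus strand. With the start site base counted as 0, the matches begin at 4, 32, -30, -103 and 7. CHR letters were present in 21 of 26 called G2/M promoters (80.8%) and in 33 of the 43 tested ones with a RefSeq promoter (76.7%). They were present in 36.5% of all lower, 9.76% of all higher and 11.8% of all tested promoters. CCAAT letters were present in 84.6% of the called G2/M promoters.

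**Figure D4:**
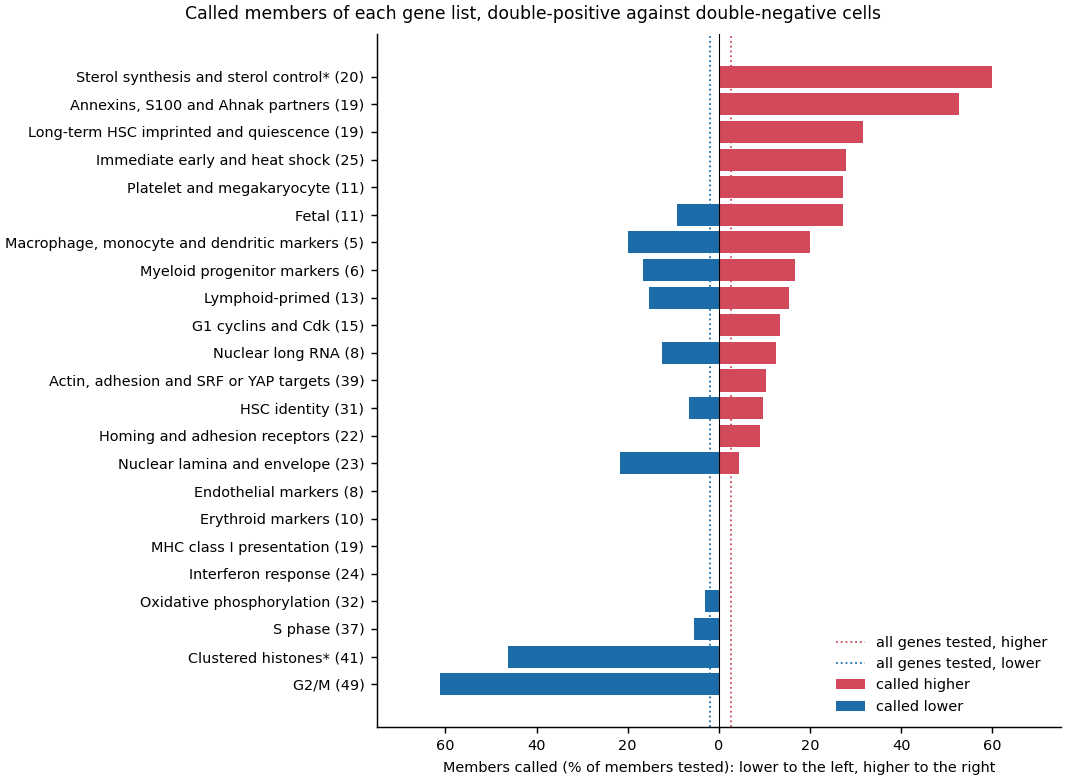
Members of each gene list called lower (blue, to the left) or higher (red, to the right) in double-positive cells, as a percentage of the members tested (x axis), with the number tested in brackets after each list name (y axis; lists with at least 5 tested) and the shares over all genes tested as dotted lines at 2.64% and 1.97%. The G2/M list has 30 of 49 lower and the annexin and S100 list 10 of 19 higher; lists marked with an asterisk were written after the values had been seen.

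Of the nuclear lamina and envelope, to which lamin A and C belong, more genes were called lower than higher. Of 23 such genes tested 1 rose and 5 fell, with a median of 0.02, where 2.64% and 1.97% of all genes tested did. Summed over the list, levels were lower in the double-positive cells of all 5 libraries, at 1524 to 1949 CPM against 1574 to 2046. Without tube 1 none of the 23 was called, and without tube 2 1 rose and none fell. Syne3, which encodes nesprin-3, the outer nuclear membrane protein that binds plectin (ENSMUSG00000054150, chr12:104929933-105009809, minus strand), was at 52.3, 43.8, 47.5, 66.9 and 66.1 CPM against 33.8, 29.4, 30.9, 40.5 and 49.4. All 5 libraries rose (0.54 ± 0.10, edgeR adjusted p = 0.000693), and Plec was higher in 4 of 5. Lmnb1, the lamin B1 gene, was at 219, 173, 170.4, 284 and 289.6 against 279.9, 236, 205, 312 and 328 CPM, lower in all 5 (-0.26 ± 0.07, edgeR adjusted p = 0.0249). Nrm, Tmpo, Lbr and Banf1, genes of inner membrane and chromatin-tethering proteins, were between -0.34 and -0.24. Tmpo and Lbr also stand in the G2/M list, so their falls are counted in both. Emd (emerin) at 0.06, Sun1 at 0.12 and Sun2 at -0.09 did not pass.

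Called genes near the selecting genes were counted. Lmna is at chr3:88480147-88509956 (minus strand) and Ahnak at chr19:8989284-9076914 (plus strand). Within 5 Mb of Lmna, 4 of 88 tested genes rose (4.55%; Fdps, S100a13, S100a4 and S100a6) and 4 fell. Within 5 Mb of Ahnak, 4 of 148 rose (2.70%; Malat1, Ehd1, Fads3 and Fads2) and 3 fell. Over all genes tested 2.64% rose and 1.97% fell, so the share near Ahnak was that of all genes.

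RNA of other cell types was present in both groups at levels that differed in single libraries. In spleen, macrophage, monocyte and dendritic markers summed to 1619 CPM in double-positive and 544 in matched cells. Erythroid markers ranged from 661 to 5045 CPM in double-positive and 579.6 to 2419 in matched cells and were higher in the former in 4 of 5 libraries. They summed to 5045 and 2419 in E19 and, the other way, to 982 and 2336 in P2 bone marrow. In E19, 9 of 45 double-positive cells had at least 2 erythroid UMIs, against 7 of 135 matched entries from 133 distinct cells. In tube 2, stromal markers summed to 496 and 45.4. Across the 5 libraries, myeloid progenitor markers ranged from 685 to 880 CPM in double-positive and 679 to 1026 in matched cells, B cell markers from 169 to 248 and 168 to 187, and endothelial markers from 385 to 697 and 416 to 620. Neutrophil markers ranged from 5.92 to 148 and 6.78 to 84.9 CPM, T, NK and innate lymphoid markers from 105 to 195 and 103 to 169, and hepatocyte markers from 34.1 to 69.7 and 38.7 to 71.2. Most markers were present in some double-positive sum. At 0 in all of these sums were 3 of 13 B cell markers (with Vpreb3 and Igll1), 2 of 20 T, NK and innate lymphoid (with Trac) and 2 of 12 mast (with Fcer1a). So were 3 of 8 eosinophil (with Epx), 2 of 19 macrophage, monocyte and dendritic (with Siglech) and 3 of 20 endothelial markers (with Lyve1 and Sox17). The same held for 1 of 14 stromal and 2 of 12 hepatocyte markers (with Apob). No neutrophil, erythroid or myeloid progenitor marker was at 0 in all sums. When cells with at least 2 UMIs of any exclusion set were left out of both groups, 347 of 8780 genes tested rose and 415 fell. These included 213 of the 261 and 164 of the 195 calls above. In that fit 12 of 19 annexin and S100 and 13 of 19 sterol genes were higher and 43 of 48 G2/M genes were lower.

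To see which genes went with 1 of the 2 selecting genes more than with the other, cells with Lmna alone were compared with cells with Ahnak alone, each cell of the smaller group being paired with the nearest unused cell of the larger. The pairing left Lmna-only cells deeper in 3 libraries, with medians of 8239 against 6513 UMIs in E19, 7056 against 6556 in P2 bone marrow and 7089 against 6756.5 in spleen. Of 10724 genes tested, 1075 were higher in Lmna-only (10.0%) and 547 higher in Ahnak-only cells (5.10%), 846 and 500 of them in the same direction in all 5 libraries. Without spleen the counts were 344 and 122 of 11229 and without E19 563 and 288 of 10355. Without P2 bone marrow 294 of 11239 genes were higher in Ahnak-only cells. With pairs kept only where their totals lay within 10% of each other (medians 7329 and 7304 in E19), 1122 and 587 of 10865 genes were called. In that fit 9 of 15 erythroid markers (median 1.81) and 35 of 37 S phase genes (median 0.50) were higher in Lmna-only cells, and 23 of 50 G2/M genes were lower, against 6 of 50 with all pairs.

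Lmna-only cells carried more RNA of red cell precursors and of DNA replication. Of 14 erythroid markers tested 10 were higher (median 2.59) and none lower, and of 37 S phase genes 34 were higher (median 0.61). Rhd, a Rh blood group gene, was at 67.9, 100.6, 113, 0.743 and 18.1 CPM in Lmna-only and 1.39, 7.85, 4.92, 0 and 0 in Ahnak-only cells of P2 bone marrow, spleen, E19, tube 1 and tube 2. It was high in the pool and E19 and near 0 in tube 1 (4.61 ± 0.24, edgeR adjusted p = 8.48e-09). Cells with at least 2 erythroid UMIs made up 14.9%, 21.97%, 24.8%, 0% and 3.57% of Lmna-only cells and at most 1.27% of Ahnak-only cells. The fit without marker-bearing cells left out those with at least 2 erythroid UMIs. Its count of 0 higher and 1 lower of 7 erythroid genes therefore describes the filter. In that fit 32 of 37 S phase genes were still higher, where 666 of all 9848 genes tested were.

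The S phase genes included Rrm2, the ribonucleotide reductase subunit gene, at 146, 118, 87.9, 108 and 98.1 against 41.6, 27.5, 18.9, 61.2 and 60.97 CPM (1.48 ± 0.31, edgeR adjusted p = 0.0348), with no overlap between the groups. Ccne1 (cyclin E1) was at 1.46 and Cdc6, a replication licensing gene, at 1.02. Without marker-bearing cells Rrm2 was at 0.51 and Ccne1 at 0.54, and with pairs within 10% in UMIs they were at 1.11 and 1.03. Both lost their call without P2 bone marrow and without spleen. Of 32 oxidative phosphorylation genes 19 were higher in Lmna-only cells and none lower, but without spleen 5 were.

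Ahnak-only cells carried more RNA of stem cell, lymphoid-primed and endothelial-type genes. Of 32 stem cell identity genes 11 were higher in them and 2 lower, of 13 lymphoid-primed genes 8 were higher, and of 9 endothelial markers 5. Without spleen these counts were 1 of 32, 2 of 13 and 0 of 9, and without E19 3 of 31, 5 of 13 and 1 of 8. Mllt3 was at 307, 364, 610, 331 and 365 CPM in Ahnak-only against 242, 232, 390, 281 and 316 in Lmna-only cells, lower in the latter in all 5 (-0.33 ± 0.08, edgeR adjusted p = 0.0132). Notch1 was at -0.56, the lymphotoxin gene Ltb at -0.56 and the Angiopoietin receptor gene Tek at -0.57. Mitotic Cenpf was at 221, 295, 153, 284 and 390 CPM in Ahnak-only and 133, 169, 120, 116 and 139 in Lmna-only cells (-0.86 ± 0.20), and Aspm, a spindle pole gene, at -1.07. Of the annexin and S100 list, S100a4, Plec, Anxa1 and Anxa6 were lower in Lmna-only cells and 16 of 20 did not pass. None of the 20 was called without P2 bone marrow or without spleen, and without marker-bearing cells 1 of 19 was higher and 1 lower.

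Both single-gene groups were also set against double-negative cells, whose cells they share with the main comparison, so the values are given side by side only. Lmna-only cells had 206 higher (1.80%) and 108 lower (0.942%) of 11463 genes, and Ahnak-only cells 1076 higher (8.28%) and 1760 lower (13.5%) of 13000. S100a4 was at 1.78 in double-positive, 0.01 in Lmna-only and 0.89 in Ahnak-only cells, S100a6 at 1.40, 0.00 and 0.64, and Anxa2 at 1.26, 0.14 and 0.33. Fdps was at 1.00, 0.34 and -0.27 and Msmo1 at 1.17, 0.03 and 0.02. Itsn1 was at 1.07, 0.10 and 0.72, Cd48 at -0.92, -0.41 and -0.54, and Cenpf at -0.59, -0.57 and 0.41.

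By lists, the annexin and S100 genes had 10 of 19 higher in double-positive, 0 of 21 in Lmna-only and 9 of 26 in Ahnak-only cells, and the sterol genes 12 of 20, 0 of 25 and 0 of 25. G2/M genes had 30 of 49 lower in double-positive and 4 of 50 in Lmna-only cells, with none higher, while in Ahnak-only cells 12 of 50 were higher and 2 lower (median 0.09). S phase genes had 2 of 37 lower and none higher in double-positive cells, 18 of 37 higher and none lower in Lmna-only cells (median 0.30), and 36 of 37 lower and none higher in Ahnak-only cells (median -0.33). These groups differ in cell numbers and depth, and the differences between the 3 comparisons were not tested.

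**Figure D5:**
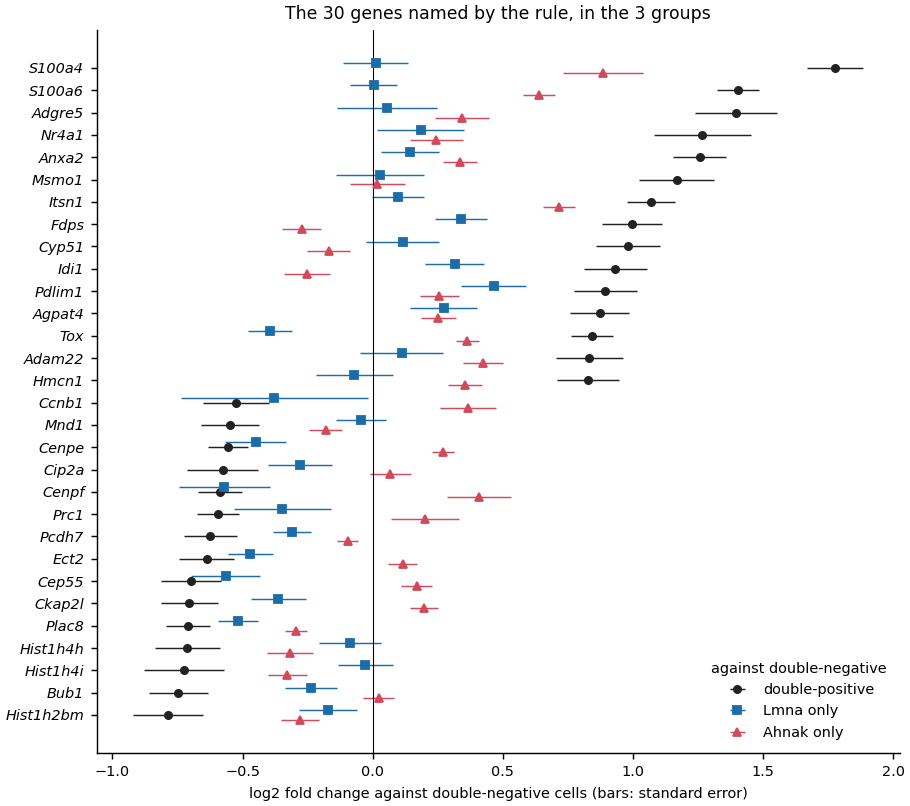
Log2 fold change against double-negative cells (x axis) of the 30 genes named by the rule (y axis) in double-positive (black), Lmna-only (blue) and Ahnak-only cells (red); bars are standard errors of the edgeR fit over 5 libraries. S100a4 stands at 1.78, 0.01 and 0.89 and Msmo1 at 1.17, 0.03 and 0.02 in the 3 groups.

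Whether the double-positive difference itself differed between the wild-type pool (bone marrow and spleen) and the reporter pups was tested as an interaction in edgeR. Pool and pups also differed in animals, tamoxifen, tdTomato sorting, mixing of tissues, depth and Cell Ranger version. These cannot be told apart from genotype here. Of 11859 genes tested, 4 passed (0.0337%), and all 4 had a smaller difference in the pups. They were the MHC class II genes H2-Ab1 and H2-Aa, the class II invariant chain gene Cd74, and Crip1. The 3 class II genes were at 346, 285 and 426 CPM in the double-positive cells of spleen against 30.3, 20.2 and 55.5 in the matched ones. At least 2 class II UMIs were held by 4 of 48 double-positive cells there. The same held for 2 of 144 matched entries, which came from 127 distinct cells. In P2 bone marrow they were at 3.08, 6.16 and 9.23 against 5.13, 0 and 9.23 CPM, and in the tubes Cd74 was at 11.2 and 13.9 against 8.62 and 9.85. Without spleen no gene was lower in the pups and 3 were higher, at 751 genes with an unadjusted p under 0.05. Crip1 was at 336 against 168 CPM in P2 bone marrow, 604 against 330 in spleen, 137 against 110.1 in tube 1 and 119 against 114 in tube 2. It passed with all 4 libraries and without the filter on low counts, and in no fit that left out 1 library.

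The 12 double-positive cells of P2 liver entered no test. Their summed annexin and S100 list was at 5504 CPM against 2444 in 36 matched entries from 28 distinct double-negative cells. Their sterol list was at 1038 against 697 and their G2/M list at 4954 against 7999. As a single library they have no replicate.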

How the data were processed

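The deposited matrices hold UMI counts per gene and cell barcode for 6 libraries and 32285 genes, made by the authors with Cell Ranger 7.0.0 (pool), 7.1.0 (E19) and 8.0.1 (tubes), per the file headers; the submitters' processing notes name mm10. The 2 hashtag samples were not used; tubes carry 4 hashtags in their matrices. Cells with at least 1000 genes, 2000 UMIs and at most 10% mitochondrial UMIs were kept (37147 of 42451), and no doublets were removed in the main analysis.

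UMIs were summed per library and group. A double-negative cell matched more than once entered each time, so 548 distinct cells make the 846 of tube 1. The 8 selecting and gate genes were left out before scaling. edgeR 4.0.16 (TMM, filterByExpr, robust quasi-likelihood, library as pairing term) was run in R 4.3.3, with DESeq2 1.42.0, limma 3.58.1 and Scrublet (scanpy 1.11.5) for alternatives, and tested on simulated data. CPM are scaled to the UMIs of a sum without regard to gene length, so levels of different genes are not compared. A log2 fold change is the edgeR coefficient, in which sums with more UMIs weigh more, with its standard error from the F statistic. Pairing comes from each library holding both groups.

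The members, gene lists and tests were chosen with earlier results of these data known. Genes were named by rule: the 15 higher and 15 lower of largest change among those called, moving the same way in every library, with mean CPM of at least 20 and no predicted-gene symbol, plus up to 4 called members per list; other genes are given for their list or pathway. The sterol and histone groups, the CHR, CCAAT and sterol response letters, the other-cell exclusion and the pup restriction were added after seeing the data, as were leaving out single libraries in the pool and pup comparison and the 10% limit on pairs of Lmna-only and Ahnak-only cells. A few genes and 1 sequence are not reported here.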

Additional observations from a re-analysis of the deposited data

Results flagged for a closer look

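For 4 genes the double-positive difference differed between the wild-type pool and the reporter pups by the interaction test (edgeR, 4 libraries). Genotype cannot be told apart here from the other differences between pool and pups, such as tamoxifen, sorting, tissue mixing and depth. The interaction, pups minus pool on the log2 scale, was -3.22 ± 0.48 for H2-Ab1 (adjusted p = 9.77e-05), -2.22 ± 0.34 for Cd74 (9.77e-05), -0.68 ± 0.13 for Crip1 (0.00621) and -5.21 ± 1.06 for H2-Aa (0.0186). H2-Ab1 and H2-Aa encode chains of MHC class II and Cd74 its invariant chain, all made by dendritic cells, macrophages and B cells, and Crip1 encodes a small LIM protein. In spleen, H2-Ab1 was seen in 142 UMIs of the double-positive and 36 of the matched sum, and in P2 bone marrow in 1 and 5.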

How the results depend on the processing

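Calls were fewest where pairing was dropped. The library pairing, or replicate block, is part of the rule: with no replicate block 2 genes rose and 0 fell (341 with an unadjusted p under 0.05), and in Lmna-only against Ahnak-only cells 0 and 0 passed (1223). limma on log2 CPM called 2 and 2 (1053), with 259 of the 261 higher genes still above 0. DESeq2 called 93 and 76 in the main comparison, 590 and 251 between Lmna-only and Ahnak-only cells, and 0 in the pool and pup comparison (262 with an unadjusted p under 0.05). With no filter on low counts, 409 rose and 347 fell, and the pool and pup comparison had 4 higher and 9 lower in the pups. No matching gave 478 and 487, thinning each cell to 2000 UMIs 98 higher, removing the highest Scrublet scores 439 and 485, at least 2 UMIs of each gene (tubes only) 505 and 607, and tubes limited to the tdTomato-negative pup 125 and 109. Falls numbered 340 with matched cells counted once, 317 with 1 matched cell without reuse, 318 among cells of low cell-cycle UMIs and 415 without markers of other cell types, where 666 genes were higher in Lmna-only cells and 4 higher and 2 lower in the pups.

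Leaving out single libraries gave 65 to 519 higher and 24 to 694 lower genes, 344 to 1054 and 122 to 717 between Lmna-only and Ahnak-only cells, and 1 to 6 and 0 to 10 in the pool and pup comparison, where a lone library stands for its source and is assumed to vary like the others. Shares of double-positive cells in P2 bone marrow, liver, spleen, E19, tube 1 and tube 2 were 1.11%, 3.68%, 1.05%, 0%, 5.36% and 4.52% with at least 2 UMIs of each gene, and thinned ones 2.17%, 1.55%, 0.272%, 5.26% and 4.43% without liver, whose 4.93% lay inside its interval.

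Direction turned for Cd68 (-0.10 with at least 2 UMIs), Igf2bp1 (-0.62 in limma), Abcb10 (-0.20 between Lmna-only and Ahnak-only cells without markers of other cell types), and in the pool and pup comparison for H2-Ab1 (0.75 without spleen, with -3.44 as the lowest on leaving out a library) and Cd74 (0.47 without spleen and 0.30 without marker-bearing cells, with -2.41 as the lowest on leaving out a library). The filter on marker-bearing cells also left out cells by their MHC class II UMIs, so the Cd74 value in that fit describes the filter. The cause was not tested. S100a4 ranged from 1.44 to 2.36, Anxa2 from 1.13 to 1.72, Itsn1 from 0.96 to 1.35, Fdps from 0.91 to 1.81, Cd48 from -1.32 to -0.68 and Cenpf from -1.69 to -0.40 on the log2 scale. Cenpf lost its call in limma, with no replicate block, without tube 1, with 1 matched cell and with no matching. Depth limits what the pool and E19 sums, each of at most 50 double-positive cells, can show.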

Other observations

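Hashtags put the sorted fractions of the pups in the tubes. Matched cells are counted here once per match, as entries, so 1 cell can count several times. In tube 1, 5 of 259 assigned double-positive cells carried a pup 1 hashtag, the tdTomato-positive fraction there. So did 21 of 781 assigned matched entries, and 19 of 1220 assigned double-negative cells when each was counted once. In tube 2, 19 of 131 double-positive cells (14.5%) and 9 of 396 matched entries (2.27%) carried a pup 2 hashtag, the tdTomato-positive fraction of that tube. Of all assigned double-negative cells of tube 2, each counted once, 15 of 426 (3.52%) did. A further 65 of 196 double-positive cells and 192 of 588 matched entries of tube 2 had no clear hashtag, as did 167 of 593 double-negative cells counted once.

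Ribosomal protein genes took a lower share of UMIs in double-positive than in matched cells of all 6 libraries. The median share was 22.5% against 24.03% in P2 bone marrow, 21.2% against 21.3% in liver, 24.2% against 26.8% in spleen, 23.7% against 25.6% in E19, 17.01% against 18.4% in tube 1 and 16.1% against 17.8% in tube 2. Mpo, which encodes myeloperoxidase and was only capped by the gate, was at 49.2, 30.5, 12.2, 15.1, 9.27 and 8.89 CPM against 76.9, 33.3, 21.0, 50.05, 24.8 and 32.4 in the same order.

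Interferon response genes (24 tested), erythroid markers (10) and endothelial markers (8) had no gene called in either direction with all 5 libraries. Nor did an MHC class I presentation list that also names class II genes (19 tested). The comparison was double-positive against double-negative cells at an adjusted p under 0.05 in edgeR, where 1588 of 9881 genes had an unadjusted p under 0.05. Single libraries moved this for the erythroid markers: without P2 bone marrow all 14 tested were above 0 (median 0.78) and 2 were called higher, without E19 the median was -0.41 and 1 of 11 was lower, and with no filter on low counts 3 of 16 were higher. Without E19, 4 of 21 genes of the MHC list and 1 of 26 interferon genes were lower and 1 of 9 endothelial markers was higher. Of all 11146 genes tested in that fit, 694 were lower and 519 higher.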
